A study of Mus musculus with 18 samples.

Results

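The 9 genes described here code for the type 17 cytokines IL-17A, IL-17F and IL-22 and for receptors of the IL-17, IL-23 and IL-1 families (Il17a, Il17f, Il22, Il23r, Il1r1, Il17ra, Il17rb, Il17rc and Il17re). They were chosen by symbol for their role, without regard to their level, and all 9 were among the 23337 genes of the count table. RNA-seq had been run on invariant natural killer T (iNKT) cells, T cells with a nearly fixed T cell receptor (TCR) for lipids on CD1d, sorted from thymi of BALB/c mice that were either WT or SKG. SKG mice carry a spontaneous point mutation in an SH2 domain of Zap70, a kinase that relays TCR signals, in every cell, and the mutant protein signals weakly. WT and SKG mice descended from the same cross of BALB/cJ with SKG, but the genotypes were then bred separately. A difference between genotypes therefore cannot be told apart from a difference between these breeding lines. The 6 groups of 3 libraries were WT NKT1, WT NKT2, WT NKT17, SKG NKT1, SKG NKT2 and SKG NKT17. The sort took CD49a on ICOS-low cells for NKT1, high ICOS, CD4 and TCR beta for NKT2, and Sdc-1 on ICOS-high cells for NKT17. Neither the age of these mice nor whether a library was 1 mouse or a pool was given, so p-values measure only the spread between libraries, which may be technical.

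In lymphoid tissue, IL-23 and IL-1 made by myeloid cells act on T cells of the type 17 kind, which carry the receptors IL-23R and IL-1R1 and answer with IL-17A, IL-17F and IL-22. IL-17RA is the chain common to receptors of the IL-17 family: with IL-17RC it receives IL-17A and IL-17F, with IL-17RB it receives IL-25, and with IL-17RE it receives IL-17C. In the thymus, NKT17 cells are the iNKT subset known for IL-17, NKT2 cells for IL-4 and NKT1 cells for interferon gamma.

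Levels are given as counts, as CPM (counts over the TMM-scaled library size) or, to compare genes, as CPM per kilobase of annotated exon (RPKM), each as mean ± SD with n = 3 libraries. A call of a difference needed a fold of at least 1.5 and an adjusted p under 0.1, from the quasi-likelihood test of edgeR with Benjamini-Hochberg adjustment over the 11118 genes tested. Of the 9 genes, 8 were tested and Il17f had too few counts. Library totals ranged from 4391029 to 8895917 counts. The labels of the sort were set against marker lists. The 5 NKT17 markers (Ccr6, Sdc1, Blk, Tmem176a and Tmem176b) summed to 3820 to 4882 CPM in NKT17 libraries and to 20.03 to 82.7 CPM elsewhere. The 6 NKT1 markers summed to 3948 to 5607 CPM in NKT1 libraries against 161 to 424 CPM. The 6 NKT2 markers summed to 2890 to 3338 CPM in WT NKT2, 1470 to 2137 CPM in SKG NKT2 and 650 to 1504 CPM elsewhere, so the lowest SKG NKT2 library was within reach of the NKT17 libraries on that list. Icos, Sdc1 and Cd4 belong to those lists and were also used in the sort. Zap70 was at 360 to 852 CPM in the 18 libraries, and counts per gene cannot show a point mutation.

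Sequence just before the start of transcription is shown for 3 genes that the results turn on: Il23r and Il1r1, whose levels moved together, and Il17a, the cytokine of the subset. The letters come from RefSeq on build GRCm38.p6 of the reference strain, not from BALB/c, and the table had entries for 8 of the 9 genes (Il17ra had none). Capitals mark AGGTCA on either strand, the core half-site of many nuclear receptors.
Il23r, chr6:67491856-67492105, minus strand: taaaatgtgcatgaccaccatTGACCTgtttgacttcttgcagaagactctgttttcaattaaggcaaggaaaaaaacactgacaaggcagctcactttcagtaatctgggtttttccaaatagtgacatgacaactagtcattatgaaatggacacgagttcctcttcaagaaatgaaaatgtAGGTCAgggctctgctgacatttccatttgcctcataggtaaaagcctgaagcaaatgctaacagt
Il17a, chr1:20730655-20730904, plus strand: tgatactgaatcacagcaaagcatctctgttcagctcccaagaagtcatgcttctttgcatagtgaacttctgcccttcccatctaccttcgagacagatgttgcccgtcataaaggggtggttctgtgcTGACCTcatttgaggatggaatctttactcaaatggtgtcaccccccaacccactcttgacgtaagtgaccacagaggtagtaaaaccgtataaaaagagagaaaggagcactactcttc
Il1r1 first start, chr1:40224830-40225079, plus strand: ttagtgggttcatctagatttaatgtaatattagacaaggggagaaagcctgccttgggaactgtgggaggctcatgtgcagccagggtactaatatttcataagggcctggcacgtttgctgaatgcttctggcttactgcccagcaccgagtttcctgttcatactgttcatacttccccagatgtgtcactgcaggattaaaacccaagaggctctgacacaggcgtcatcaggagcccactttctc
Il1r1 second start, chr1:40266336-40266585, plus strand: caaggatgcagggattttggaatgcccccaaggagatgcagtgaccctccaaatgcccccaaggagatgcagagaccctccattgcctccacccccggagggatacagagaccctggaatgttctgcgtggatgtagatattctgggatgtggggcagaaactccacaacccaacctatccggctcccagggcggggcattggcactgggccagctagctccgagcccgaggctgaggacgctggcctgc
The letters occurred at 2 places before Il23r, with first bases 66 and 229 bases ahead of the start, and at 1 place before Il17a, 120 bases ahead. They were found before Il17f as well, 58 bases ahead of the start, and in neither Il1r1 window nor those of Il17rb, Il17rc, Il17re and Il22. Of all 32851 RefSeq windows of 250 bases, 14% held them. A match here is a description of the letters and not a site.

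The receptors were examined first across the subsets of WT thymus. Il23r, which codes for the chain particular to the IL-23 receptor, had 2339, 2614 and 3286 counts in the WT NKT17 libraries, against 2, 0 and 0 in WT NKT1 and 2, 1 and 1 in WT NKT2. Il23r reads were thus nearly all in NKT17 libraries, where the level was 454 ± 2.85 CPM. From the pooled counts, the level in WT NKT17 was 4348 times that in WT NKT1 (95% exact interval 1203 to 35910) and 1906 times that in WT NKT2 (744 to 6996), and both differences passed the test (edgeR adjusted p 1.26e-17 and 2.12e-17). These intervals cover counting error only, since the reads had no molecular identifiers. In bulk libraries, fewer cells with a transcript and less of it per cell cannot be told apart.

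Il1r1, the signalling receptor of IL-1alpha and IL-1beta, had 2462, 2446 and 3597 counts in WT NKT17 and 467 ± 36.3 CPM. It had 0, 1 and 5 counts in WT NKT1 and 17, 2 and 14 in WT NKT2. Both were far below NKT17 (log2 fold 10.43, SE 0.60, and 7.87, SE 0.49; edgeR adjusted p 4.16e-09 and 1.95e-08). Il17re, the IL-17C receptor chain, had 994, 1176 and 1805 counts in WT NKT17 and at most 7 in any other WT library (log2 fold 8.04, SE 0.39, over NKT1 and 9.70, SE 0.46, over NKT2; edgeR adjusted p 5.74e-12 and 7.85e-12). Il17rc, which lies 675 bases from Il17re on the same strand of chromosome 6, was also highest in WT NKT17, at a far lower level. It had 50, 20 and 72 counts in WT NKT17, 1, 1 and 4 in WT NKT1 and 3, 7 and 6 in WT NKT2. Its level in WT NKT17 was 7.71 ± 3.66 CPM, above NKT1 (log2 fold 4.50, SE 0.65, edgeR adjusted p 8.52e-06) and above NKT2 (3.00, SE 0.57, edgeR adjusted p 3.48e-04).

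The remaining receptor chains were not NKT17 genes in this sense. Il17rb, the IL-25 receptor chain, had 756, 1019 and 1308 counts in WT NKT17 and 1063, 1403 and 2295 in WT NKT2, but 3, 5 and 34 in WT NKT1. Its level was 168 ± 17.8 CPM in WT NKT17 and 278 ± 81.9 CPM in WT NKT2, and although the libraries of these groups did not overlap, the log2 difference of -0.73 (SE 0.38) did not pass (edgeR adjusted p 0.211; 0.0173 with only the 6 libraries compared in the fit). Both stood above NKT1, by 6.20 (SE 0.55) and 6.93 (SE 0.56) on the log2 scale (edgeR adjusted p 1.22e-06 and 5.32e-07). Il17ra, the common chain, was present in all 18 libraries and ran the other way: it was highest in WT NKT1 at 153 ± 22.1 CPM, lower in WT NKT17 at 84.8 ± 9.32 CPM and lowest in WT NKT2 at 57.6 ± 4.41 CPM. The fall from NKT1 to NKT17 (log2 -0.85, SE 0.13) and from NKT1 to NKT2 (-1.41, SE 0.13) passed the test (edgeR adjusted p 1.85e-05 and 1.84e-08), while the difference between NKT17 and NKT2 (0.56, SE 0.13, edgeR adjusted p 0.00299) was under the fold minimum and passed it without WT NKT2 replicate 1, WT NKT2 replicate 3 or WT NKT17 replicate 1, at a log2 difference of at most 0.63.

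**Figure D1:**
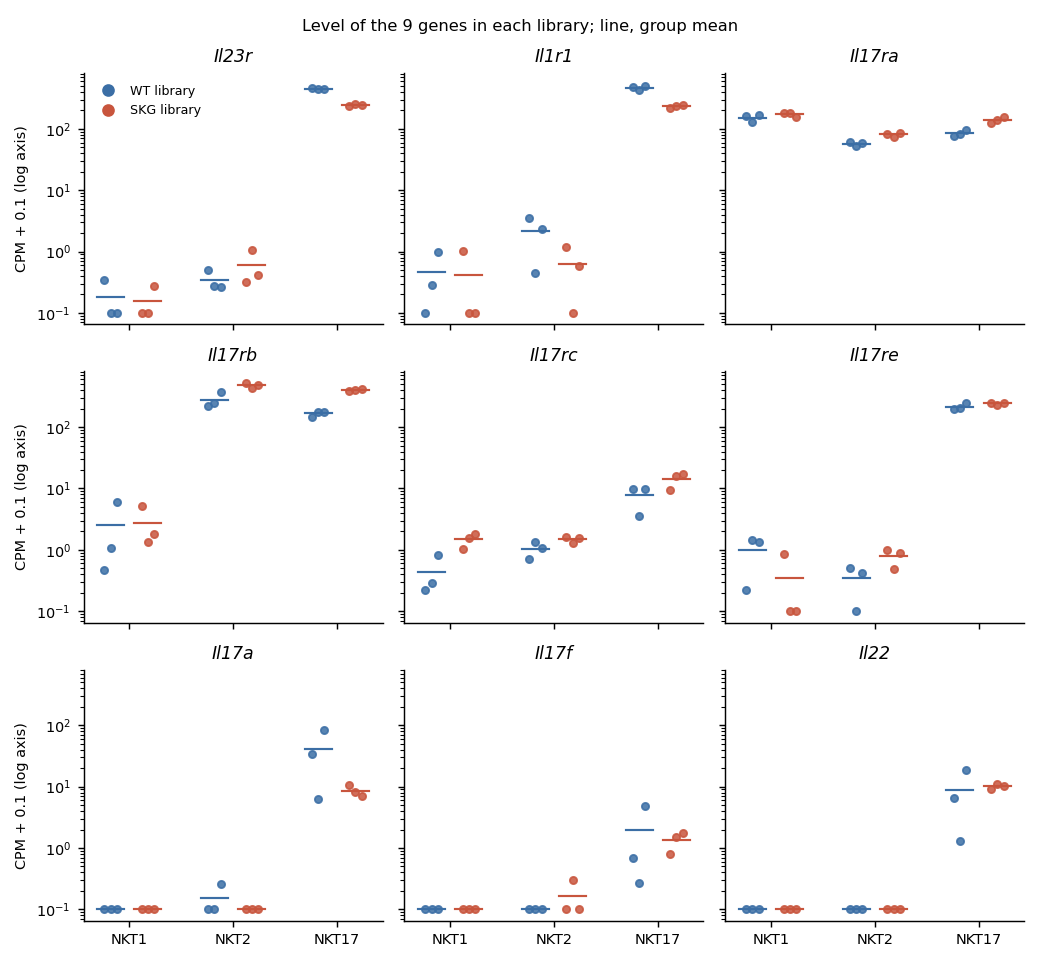
Level of each of the 9 genes in the 18 libraries, in CPM with 0.1 added on a log axis, by subset; blue points are WT libraries, red points SKG libraries and lines group means. Il23r, Il1r1 and Il17re stood high in NKT17 libraries, Il17rb in NKT2 and NKT17 libraries, and Il17ra in all 18. Il17rc, Il17a and Il22 were highest in NKT17 libraries at lower levels, and Il17f had few counts.

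The cytokine genes were read almost solely in NKT17 libraries, and at levels that varied widely. Il17a had 174, 35 and 607 counts in WT NKT17, none in the 6 NKT1 libraries or the SKG NKT2 libraries, and 1 in a WT NKT2 library. Its level in WT NKT17 was at least 287-fold higher than in WT NKT1, computed from pooled counts against 3 counts over that group, and at least 123-fold higher without replicate 3, which held 607 of the counts. Il22 had 33, 7 and 136 counts in WT NKT17 and 0 in all 12 NKT1 and NKT2 libraries, at least 61.9-fold higher than in WT NKT1, and at least 23.5-fold higher without WT NKT17 replicate 3. Il17f, 42654 bases from Il17a on chromosome 1, had 3, 1 and 35 counts in WT NKT17, 5, 8 and 9 in SKG NKT17 and 1 in the other 12 libraries. On the reference genome, Il22 has a near-identical copy, Iltifb, 79586 bases away on chromosome 10, so the division of reads between them is uncertain. The reference strain is not BALB/c, and whether these mice carry the copy was not examined. Iltifb had 3, 2 and 32 counts in WT NKT17 and 14, 6 and 4 in SKG NKT17.

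Counted over the 8 genes tested, 8 differed between WT NKT17 and NKT1 (7 higher in NKT17, Il17ra lower), where 24.7% of all genes tested were called. Between WT NKT17 and NKT2, 6 were higher in NKT17 and none lower (20.0% of all genes called). Between WT NKT2 and NKT1, Il17rb and Il1r1 were higher in NKT2 and Il17ra lower (27.5% called), the Il1r1 difference resting on the 33 and 6 counts above (6.27 times, 95% exact interval 2.60 to 18.3). In SKG mice, 7 genes were higher in NKT17 than in NKT1 (22.8% called) and 7 higher than in NKT2, Il17ra among them (18.8% called). Most of the 8 entered the test through NKT17 libraries, so a call higher in NKT17 was close to fixed for them. The counts of calls against NKT17 therefore say little beside the shares over all genes. Between SKG NKT2 and NKT1, Il17rb was higher and Il17ra lower in NKT2, and Il23r was called higher from 8 against 1 counts in 3 libraries each (18.7% called; 8.04 times, 95% exact interval 1.08 to 357). That Il23r call was made in 8 of 14 alternatives, and the Il1r1 call in 8 of 14.

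The genotypes were compared next, to ask whether these genes differ between WT and SKG cells of the same subset. In NKT17 cells, Il23r had 1667, 1440 and 1312 counts in SKG against 2339, 2614 and 3286 in WT, or 245 ± 7.69 CPM against 454 ± 2.85 CPM. Every SKG library lay below every WT library (236 to 251 against 451 to 457 CPM), and the log2 difference of -0.89 (SE 0.15) passed the test (edgeR adjusted p 3.14e-04) and was called under all 14 alternatives (log2 -0.91 to -0.87). Il1r1 had 1524, 1352 and 1310 counts in SKG against 2462, 2446 and 3597 in WT, or 233 ± 15.3 CPM against 467 ± 36.3 CPM. These libraries did not overlap either, and the log2 difference was -1.005 (SE 0.32, edgeR adjusted p 0.0727).

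The receptor chains of the IL-17 family were compared next, and 2 of the 4 were called higher in SKG. Il17rb rose to 2694, 2297 and 2190 counts in SKG NKT17, or 398 ± 14.9 CPM against 168 ± 17.8 CPM in WT, with a log2 difference of 1.24 (SE 0.38, edgeR adjusted p 0.0636) and no overlap. Il17ra rose from 393, 475 and 692 counts to 893, 813 and 835, or from 84.8 ± 9.32 to 142 ± 15.1 CPM, with no overlap (log2 0.74, SE 0.13, edgeR adjusted p 5.57e-04, called under all 14 alternatives). Il17re had 1764, 1339 and 1339 counts in SKG, or 245 ± 9.82 CPM against 215 ± 28.5 CPM in WT, with overlapping libraries and a difference that did not pass (log2 0.18, SE 0.24, edgeR adjusted p 0.735). Il17rc stood at 66, 91 and 90 counts in SKG, or 14.0 ± 4.09 CPM against 7.71 ± 3.66 CPM, also overlapping (log2 0.86, SE 0.48, edgeR adjusted p 0.314).

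Among the cytokines, Il17a had 74, 46 and 37 counts in SKG NKT17 against 174, 35 and 607 in WT. The SKG libraries lay within the range of the WT libraries, yet the log2 difference of -2.27 (SE 0.73) was called (edgeR adjusted p 0.0939). In CPM, WT replicate 2 was below all 3 SKG libraries, and WT replicates 1 (34.0) and 3 (83.3) were well above them. Il22 had 65, 62 and 55 counts in SKG, which lay between the WT values of 7 and 136 (log2 0.19, SE 0.74, edgeR adjusted p 0.931). The WT NKT17 libraries differed among themselves in the same order for Il17a, Il17f, Il22 and Iltifb, replicate 3 highest and replicate 2 lowest. Fos, an immediate-early gene, had 4801, 1458 and 8033 counts in these libraries. Nr4a1, an early gene of TCR signalling, had 383, 50 and 487, so both were lowest in replicate 2 as well. In CPM, Nr4a1 was higher in WT NKT17 replicate 1 (74.8) than in replicate 3 (66.8). The SKG NKT17 libraries did not share an order, with Fos at 754, 1534 and 1085 CPM and Il17a at 10.5, 8.03 and 6.94 CPM. Fos and Nr4a1 were chosen after their values were seen, and their part in the result was not tested.

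In all, 5 of 8 genes were called between SKG and WT NKT17 cells (Il17ra and Il17rb higher, Il23r, Il1r1 and Il17a lower), where 8.37% of all genes tested were called. The calls of Il1r1, Il17rb and Il17a were not stable. When any 1 of the 6 NKT17 libraries was left out, neither Il1r1 (adjusted p 0.104 to 0.224 over the 6 fits) nor Il17rb (0.116 to 0.186) was called, and Il17a was called without WT NKT17 replicate 2 alone (adjusted p 0.00110; 0.334 at most over the 6). With DESeq2 the adjusted p was 0.643 for Il1r1, 0.233 for Il17rb and 0.313 for Il17a. With only the 6 NKT17 libraries in the edgeR fit it was 6.88e-05 for Il1r1, 1.18e-05 for Il17rb and 0.293 for Il17a; the reported values use a spread estimated over all 6 groups. The log2 differences of Il1r1 (-1.07 to -0.95) and Il17rb (1.08 to 1.30) hardly moved over the 14 alternatives, while that of Il17a ran from -2.80 to -1.22.

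**Figure D2:**
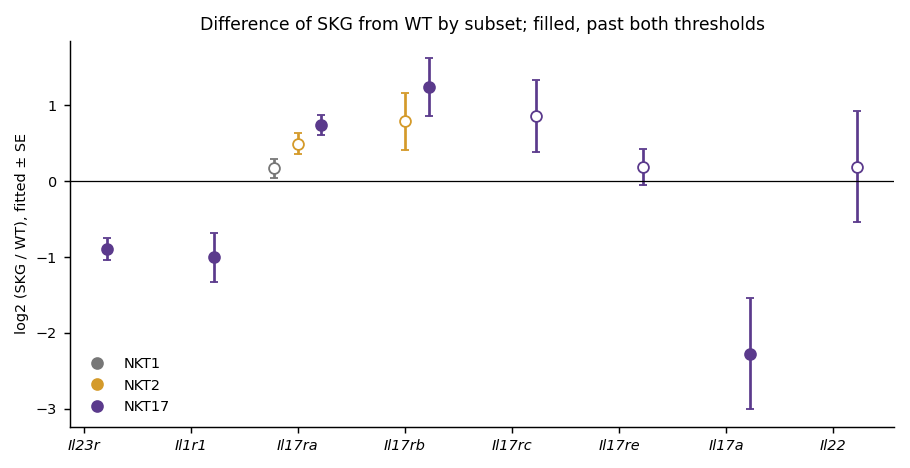
Fitted log2 difference of SKG from WT with its SE, in NKT1 (grey), NKT2 (orange) and NKT17 (purple), for all 8 tested genes in NKT17, Il17ra and Il17rb in NKT2 and Il17ra in NKT1; the others had few counts and are left off. Filled points passed both thresholds: Il23r, Il1r1 and Il17a below 0 and Il17ra and Il17rb above 0, all in NKT17.

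In NKT2 cells, 0 of 8 genes were called between SKG and WT by edgeR and by DESeq2 (7.95% of all genes called by edgeR), with 1 at an unadjusted p under 0.05. The count says little about the set, since most of the 8 entered the test through NKT17: pooled over SKG and over WT NKT2, Il22 had 0 and 0 counts, Il17a 0 and 1, Il23r 8 and 4, and Il17re 11 and 4. The gene at an unadjusted p under 0.05 was Il17ra, with 379, 374 and 543 counts in SKG against 298, 301 and 367 in WT, or 81.3 ± 7.24 CPM against 57.6 ± 4.41 CPM. Its libraries did not overlap and its adjusted p was 0.0197, but its log2 difference of 0.50 (SE 0.13) was under the fold minimum. Il17rb had 2395, 2188 and 3024 counts in SKG NKT2 against 1063, 1403 and 2295 in WT, or 480 ± 49.7 CPM against 278 ± 81.9 CPM, again with no overlap. Its log2 difference of 0.79 (SE 0.38) did not pass (edgeR adjusted p 0.256), and was called at 0.0628 with only the NKT2 libraries in the fit.

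In NKT1 cells, 0 of 8 genes were called by edgeR and by DESeq2 (3.27% of all genes called by edgeR), with 1 at an unadjusted p under 0.05, Il17rc, at 5, 7 and 10 counts in SKG and 1, 1 and 4 in WT (edgeR adjusted p 0.158, and called without WT NKT1 replicate 3). Here too the count says little about the set: Il17a and Il22 had 0 counts in both genotypes, Il23r 1 in SKG and 2 in WT, and Il1r1 5 and 6. Il17ra stood at 172 ± 13.3 CPM in SKG NKT1 and 153 ± 22.1 CPM in WT NKT1, with overlapping libraries (log2 0.17, SE 0.13, edgeR adjusted p 0.629). Whether the SKG difference itself differed between subsets was tested for the same 8 genes, and 0 were called by edgeR or by DESeq2 for NKT2 against NKT1 (3.87% of all genes called by edgeR), NKT17 against NKT1 (4.17%) and NKT17 against NKT2 (2.19%). At an unadjusted p under 0.05 there was 1 gene in each. Il17a and Il22 could not have been called here, being at or near 0 counts outside NKT17, and Il23r had 2 and 1 counts in NKT1, so these counts too say little. For Il17ra, the SKG difference was larger by 0.57 (SE 0.18) on the log2 scale in NKT17 than in NKT1 (edgeR adjusted p 0.104), and it was called without WT NKT1 replicate 2, SKG NKT17 replicate 1 or WT NKT17 replicate 3 (adjusted p down to 0.0407).

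Ratios of counts within a library, which do not depend on scaling, set out the NKT17 pattern. For every Il23r count there were 1.05, 0.936 and 1.09 Il1r1 counts in the WT NKT17 libraries and 0.914, 0.939 and 0.998 in the SKG libraries, so this ratio overlapped between the genotypes. For every Il23r count there were 0.323, 0.390 and 0.398 Il17rb counts in WT and 1.62, 1.60 and 1.67 in SKG. The Il17re ratio to Il23r was 0.425, 0.450 and 0.549 in WT and 1.06, 0.930 and 1.02 in SKG. For every Il22 count there were 5.27, 5.00 and 4.46 Il17a counts in the WT libraries, although their Il17a counts ran from 35 to 607, and 1.14, 0.742 and 0.673 in the SKG libraries. WT and SKG libraries were thus apart in 3 of these 4 chosen ratios and overlapped in that of Il1r1 to Il23r. For Il17rb to Il23r this was fixed beforehand, since the genes differed in opposite directions without overlap. The levels fixed it for Il17re to Il23r as well. In SKG NKT17, Il17re was at least 234 CPM and Il23r at most 251 CPM. In WT NKT17, Il17re was at most 248 CPM and Il23r at least 451 CPM. The ratios restate the levels above, and the share of other gene pairs that lay apart was not computed. No test was made, since the smallest two-sided exact permutation p for groups of 3 is 0.1, and genes of different length cannot be ranked by these ratios.

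**Figure D3:**
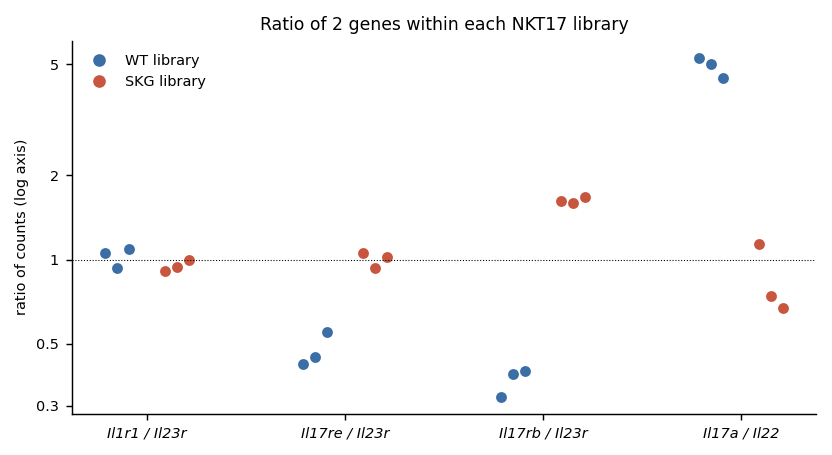
Ratio of the counts of 2 genes within each NKT17 library on a log axis, WT in blue and SKG in red; the dotted line is a ratio of 1. Il1r1 to Il23r overlapped between genotypes, the ratios of Il17re and Il17rb to Il23r were higher in SKG libraries, and that of Il17a to Il22 was lower.

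The 2 title tokens that both genotypes share allow comparison of libraries that carry the same token, although the labels do not say what it marks. For Il23r the log2 difference of SKG from WT NKT17 was -0.94 and -0.84 within the tokens, with 0.5 CPM added to each level. It was -0.98 and -1.06 for Il1r1, 1.10 and 1.16 for Il17rb, and 0.61 and 0.58 for Il17ra. The direction within tokens was fixed beforehand for these 4 genes, because their SKG and WT NKT17 libraries did not overlap. Only the size of the differences is added here. Il17a gave 0.74 and -3.30 and Il22 gave 2.50 and -0.76.

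Per kilobase of exon, the order of the receptors in NKT17 cells differed between genotypes. In WT NKT17, Il23r was highest at 182 ± 1.14 RPKM, followed by Il1r1 at 92.3 ± 7.18 and Il17re at 71.1 ± 9.39, and these 3 did not overlap. Il17rb at 61.6 ± 6.53 RPKM overlapped Il17re. Il17a, at 35.1 ± 33.4 RPKM, ran from 5.20 to 71.1 RPKM. It overlapped Il17re, Il17rb, Il17ra at 21.4 ± 2.35 and Il22 at 7.94 ± 8.10 RPKM. Below Il17ra stood Il22, Il17rc at 2.89 ± 1.37 and Il17f at 1.58 ± 2.18 RPKM, each overlapping the next. In SKG NKT17, Il17rb was highest at 146 ± 5.47 RPKM, then Il23r at 98.3 ± 3.09, Il17re at 80.8 ± 3.24, Il1r1 at 46.0 ± 3.02 and Il17ra at 35.7 ± 3.81 RPKM, with no overlap between any of these. Il22 at 9.15 ± 0.746 and Il17rc at 5.26 ± 1.53 RPKM each overlapped Il17a at 7.25 ± 1.55, and Il17f at 1.08 ± 0.429 RPKM was lowest. In NKT2 cells the order held Il17rb first, at 102 ± 30.0 RPKM in WT and 176 ± 18.2 in SKG, and Il17ra next, at 14.5 ± 1.11 and 20.5 ± 1.82 RPKM. In NKT1 cells Il17ra was highest, at 38.5 ± 5.56 RPKM in WT and 43.3 ± 3.36 in SKG, followed by Il17rb at 0.897 ± 1.14 and 0.977 ± 0.751 RPKM.

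**Figure D4:**
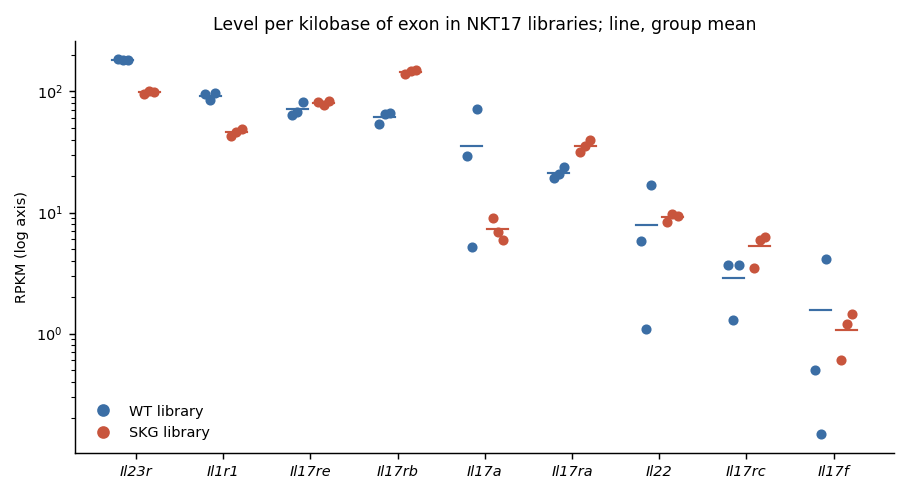
RPKM of each gene in the NKT17 libraries on a log axis, ordered by the WT mean; points are libraries, lines group means, WT blue and SKG red. Il23r led in WT at 182 RPKM and Il17rb led in SKG at 146 RPKM.

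Partner chains of these receptors did not all follow them. Il12rb1, the chain that IL-23R shares with the IL-12 receptor, was higher in WT NKT17 (281 CPM) than in WT NKT1 (63.7 CPM; log2 2.15, SE 0.18, edgeR adjusted p 5.64e-09) and NKT2 (121 CPM), and stood at 269 CPM in SKG NKT17 (log2 difference from WT -0.06, SE 0.17, edgeR adjusted p 0.896). Il1rap, the accessory chain of IL-1R1, was at 22.9 CPM in WT and 19.97 CPM in SKG NKT17 (log2 -0.20, SE 0.28, edgeR adjusted p 0.759). Il12rb2, the chain particular to the IL-12 receptor, was chosen for contrast after its values were seen: it had 1712, 1097 and 1036 counts in WT NKT1 and 0, 0 and 2 in WT NKT17. NKT1 libraries thus held Il12rb1 with Il12rb2, and NKT17 libraries Il12rb1 with Il23r.

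Of 10 other receptor chains of these families, 8 were tested, and between SKG and WT NKT17 cells 1 rose, 1 fell and 6 did not pass (median log2 -0.14, against 0.00 over all genes tested, of which 8.37% were called). Il10rb, the second chain of the IL-22 receptor, rose from 46.9 to 81.7 CPM (log2 0.80, SE 0.13, edgeR adjusted p 2.55e-04). Il18rap, the accessory chain of the IL-18 receptor, fell from 85.4 to 52.1 CPM (log2 -0.72, SE 0.18, edgeR adjusted p 0.0130). Il22ra1, the chain particular to the IL-22 receptor, had 0 counts in all 18 libraries. Of 11 ligands and soluble partners, none had enough counts to be tested, and Il23a, Il12b, Il1b, Il25, Il17b and Il17d had 0 counts in all 18. The receptors of IL-23 and IL-1 were thus read in these cells, and their ligands IL-23p19 and IL-1beta were not. In SKG NKT2 cells, Il18r1, the other chain of the IL-18 receptor, rose from 66.5 to 101 CPM (log2 0.60, SE 0.15, edgeR adjusted p 0.0106) and 7 chains did not pass (7.95% of all genes called), and in NKT1 cells edgeR called 0 of the 8, with 1 at an unadjusted p under 0.05 (3.27% of all genes called).

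Of 22 genes that relay signals of the IL-17 and IL-1 receptors, 2 rose, 1 fell and 19 did not pass between SKG and WT NKT17 cells (median log2 0.14; 8.37% of all genes called). Traf3ip2, which codes for Act1, the adapter of IL-17 receptors, rose from 41.3 to 66.7 CPM (log2 0.69, SE 0.15, edgeR adjusted p 0.00336). Irak3, an inhibitor of IL-1 receptor signalling, rose from 0.622 to 5.85 CPM (log2 3.14, SE 0.85, edgeR adjusted p 0.0227), and the adapter gene Traf5 fell from 14.3 to 7.18 CPM (log2 -0.99, SE 0.26, edgeR adjusted p 0.0167). In SKG NKT2 cells, where 7.95% of all genes were called, 2 of the 22 rose, the inhibitors Nfkbia (182 to 307 CPM, log2 0.75, SE 0.15, edgeR adjusted p 0.00237) and Zc3h12a (7.15 to 14.3 CPM), and Traf5 fell (40.8 to 20.0498 CPM). In SKG NKT1 cells, where 3.27% were called, the kinase gene Irak2 alone was called, lower at 44.7 than at 77.1 CPM. Of the 5 relays of IL-23 (Jak2, Tyk2, Stat3, Stat4 and Socs3), 0 were called between SKG and WT NKT17 cells by edgeR, with 1 at an unadjusted p under 0.05 (median log2 0.01). In SKG NKT2 cells Stat4, a STAT of IL-12 and IL-23 signals, rose from 1.49 to 7.74 CPM (log2 2.46, SE 0.51, edgeR adjusted p 0.00603), and in SKG NKT1 cells Socs3 fell from 59.2 to 22.9 CPM (log2 -1.38, SE 0.30, edgeR adjusted p 0.0193). Socs3, the feedback inhibitor induced by STAT3, was higher in WT NKT17 (309 CPM) than in WT NKT2 (13.0 CPM; log2 4.57, SE 0.33, edgeR adjusted p 3.13e-08), and it was at 323 CPM in SKG NKT17.

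Of 15 genes of the type 17 programme, 14 were tested, and 1 rose, 1 fell and 12 did not pass between SKG and WT NKT17 cells (median log2 -0.23; 8.37% of all genes called). Ccr6, the chemokine receptor of type 17 cells, rose from 12.0 to 592 CPM (log2 5.62, SE 0.47, edgeR adjusted p 5.32e-06). Blk, a Src-family kinase, fell from 2002 to 828 CPM (log2 -1.27, SE 0.22, edgeR adjusted p 0.00118). In NKT1 cells Rora and Runx1 of this list rose and Ikzf3 fell in SKG (3.27% of all genes called). In NKT2 cells 4 of the 14 rose and 5 fell in SKG, against 7.95% of all genes called, the largest changes being in Il21 and Blk, which fell, and in Rora and Ltb, which rose (Ltb from 519 to 1255 CPM, log2 1.27, SE 0.12, edgeR adjusted p 1.25e-07). Il23r had 1, 5 and 2 counts in the SKG NKT2 libraries and Il17a none.

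Genes with a profile over the 6 group means most like each tested member were found by the root mean square difference of centred log2 levels, as a description over 6 groups. Il23r was closest to Mycn (0.66), Sdc1 (0.78) and Il1r1 (0.87), and Il1r1 to Blk (0.41), Stab2 (0.78) and Il23r, on ranges of 11.71 and 11.12 log2 units; Sdc1 was used in the sort. Il17rb was closest to Chdh (0.18, on a range of 8.42), which codes for choline dehydrogenase. Ifngr2 (0.50) and Ccr7 (0.77) came next. Il17ra, whose range was 1.58, was closest to Anxa6 (0.08), Cd48 and Ado (both 0.10). Il17re was closest to Mmp25 (0.37), 1300014I06Rik (0.54) and Mycn (0.55), and Il17rc to Fam114a1 (0.16), 4921508A21Rik (0.31) and Sept8 (0.47). Il17a was closest to Fstl4 (0.24), Hs3st1 (0.26) and Smyd1 (0.35). Il22 was closest to Glt25d2 (0.0035), Atoh8 (0.14) and 2310007L24Rik (0.22), each like it read from few counts.

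Chdh is also the neighbour of Il17rb. On build NCBIM37, Il17rb runs from 30809327 to 30822082 on the minus strand of chromosome 14 and Chdh from 30822209 to 30853652 on the plus strand, so their starts face away from each other across 126 bases. Chdh had 173, 259 and 418 counts in WT NKT2 and 424, 423 and 562 in SKG NKT2. It had 187, 156 and 234 in WT NKT17 and 382, 348 and 341 in SKG NKT17. In NKT1 it had 0, 0 and 7 in WT and 6, 1 and 1 in SKG, and the libraries with 7 and 6 were those with the most Il17rb in their groups, at 34 and 27 counts. Chdh rose in SKG NKT17 (31.9 ± 4.69 to 59.6 ± 5.04 CPM, log2 0.90, SE 0.32, edgeR adjusted p 0.0952), and in NKT2 its log2 difference of 0.84 (SE 0.32) did not pass (edgeR adjusted p 0.121). For every Il17rb count there were 0.153 to 0.247 Chdh counts in WT NKT17, 0.142 to 0.156 in SKG NKT17, 0.163 to 0.185 in WT NKT2 and 0.177 to 0.193 in SKG NKT2. The annotated spans do not overlap, and the strand setting of the counting was not given.

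**Figure D5:**
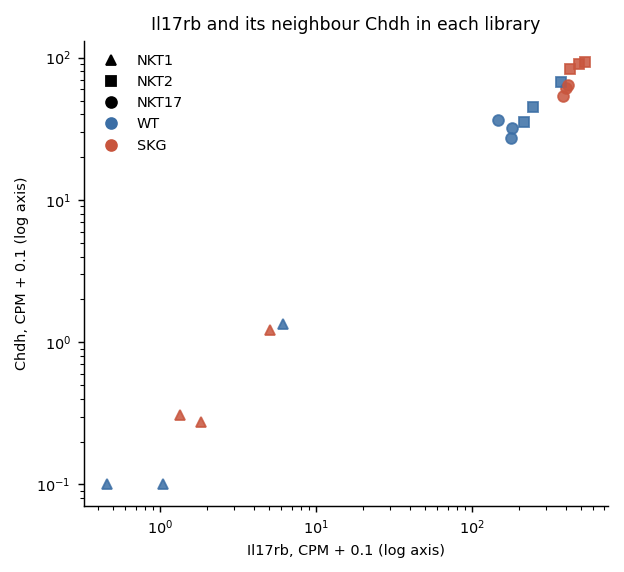
Chdh against Il17rb in the 18 libraries, each in CPM with 0.1 added on log axes; triangles are NKT1, squares NKT2, circles NKT17, blue WT and red SKG. The genes were low together in NKT1 and high together in NKT2 and NKT17, and SKG points lay above WT points within NKT2 and NKT17.

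Markers of other cells were read in some groups, and some moved with the genotype in NKT17. The 4 B cell genes summed to 24.8 to 40.7 CPM in SKG NKT17 and 7.82 to 11.1 CPM in WT NKT17, with Ms4a1 and Ebf1 at 0 in SKG; its 1 tested gene, Cd79b, rose from 9.20 to 34.6 CPM (log2 1.91, SE 0.40, edgeR adjusted p 0.00264). The 6 genes of double-positive thymocytes summed to 13.8 to 37.7 CPM and 2.93 to 12.5 CPM, with Rag1, Rag2, Dntt and Arpp21 at 0 in both, and Cd8b1 rose from 6.54 to 22.5 CPM (log2 1.78, SE 0.64, edgeR adjusted p 0.0915). The 6 myeloid genes summed to 273 to 525 CPM in WT NKT1 and 172 to 212 CPM in SKG NKT1, with Csf1r, Cd14 and Itgam at 0 in both. Of the 2 tested, Fcer1g alone was called between these groups, lower in SKG (3.27% of all genes called). In NKT17 libraries the 6 summed to at most 6.94 CPM. In NKT17 libraries the 3 of thymic epithelium summed to at most 16.6 CPM and the 3 of red cells to at most 0.823 CPM. Epcam of the epithelial list fell from 12.2 to 4.15 CPM in SKG NKT17 (log2 -1.55, SE 0.52, edgeR adjusted p 0.0686). Of 4 genes of gamma-delta T cells the table held Sox13, at 276 to 344 CPM in WT NKT17 and 104 to 181 CPM in WT NKT2, which fell from 319 to 117 CPM in SKG NKT17 (log2 -1.44, SE 0.27, edgeR adjusted p 0.00226). The fall of Sox13 was not particular to NKT17. It was also called lower in SKG NKT2 (4.18 to 7.71 CPM, log2 -4.64) and in SKG NKT1 (log2 -2.76). Whether such cells were in the libraries, and their part in the results above, was not tested.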

How the data were processed

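RNA-seq libraries of the 3 sorted thymic iNKT subsets of both genotypes were made, per the labels, by a full-length poly-A cDNA method with Tn5 tagmentation and sequenced as single reads of 50 bases. The deposited counts are whole numbers of reads for each gene symbol, which the authors obtained with TopHat and htseq-count in union mode without normalization. The submitters' processing notes list Bowtie 1.0.0, TopHat 1.4.1 and HTSeq 0.7.1, and builds that differ from the mm9 of the methods; the annotation and strand setting are not given in the sources used here. The table had 2 columns of no listed sample, which were not used.

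Libraries of a group differed by more than counting noise (chi-square per degree of freedom 5.54 to 25.05) and were kept as 3 replicates. From the counts, edgeR 4.0.16 (R 4.3.3) fitted a robust quasi-likelihood model to 6 groups after filterByExpr and TMM scaling (factors 0.928 to 1.07), leaving 12 residual degrees of freedom; the common biological coefficient of variation was 21.1%. SEs are the absolute log2 fold over the square root of F. Folds against 0 counts use 3 counts over the group; ratios of pooled counts have exact 95% intervals. RPKM used exon unions and coordinates of GENCODE M1 on NCBIM37, joined by symbol. The fit was tested on simulated counts before use. Alternatives were DESeq2 1.42.0, RLE and upper-quartile scaling, no filter, an adjusted p under 0.05, no fold minimum, only the libraries compared, a replicate block, each library left out in turn, longest transcripts for RPKM and a prior count of 2 in place of 0.5 for likeness.

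The numbers used for the block are tokens in the sample titles, each found in all 3 subsets of a genotype. Deviations from group means correlated between same-token libraries of WT NKT17 and NKT2 at 0.219 to 0.351, so every pair was over 0.1. In no other comparison was every pair over 0.1. The reported tests of WT NKT17 against NKT2 did not use this pairing, and only the replicate block did. With the block the same 6 genes were called, at edgeR adjusted p 1.13e-15 for Il23r and 4.23e-11 for Il17re. The 9 genes, the lists (ligands, other receptor chains, relays, type 17 programme, subset and cell type markers) and the tests were chosen with earlier results of these data known. The text names all 9 genes, up to 4 called genes of a list by largest absolute log2 difference whose mean in the higher group reached 10 counts, the partner chains and the 3 genes most like each member; Il12rb2, Chdh and Iltifb (as neighbour and copy), Fos, Nr4a1, marker genes, Zap70, and Socs3 where not called fall outside that rule. A gene of each of 3 lists is not reported here and was left out of their counts and sums.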

Additional observations from a re-analysis of the deposited data

How the results depend on the processing

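The call of Il23r and Il17ra between SKG and WT NKT17 cells was made under every alternative run, and counts of called genes were within 1.5 times the reported ones except as follows. Between SKG and WT NKT17 the count of 5 became 2 with DESeq2, 2 at an adjusted p under 0.05, 2 with the replicate block, 3 without a filter and 2 to 3 with 1 library left out. Between SKG and WT NKT2 the count of 0 became 1 with no fold minimum (Il17ra), 1 with only the libraries compared (Il17rb) and 0 to 1 with 1 library left out (Il1r1, without WT NKT2 replicate 2). It was 0 to 1 with 1 library left out for SKG against WT in NKT1 (Il17rc, without WT NKT1 replicate 3) and for the differences of the SKG effect of NKT2 from NKT1 (Il17re, without WT NKT1 replicate 1 or SKG NKT1 replicate 1) and of NKT17 from NKT1 (Il17re, or Il17ra). The cause was not tested.

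Directions reversed in uncalled results at few counts. The log2 difference of Il17rb between SKG and WT NKT1, 0.25, was -0.39 without WT NKT1 replicate 1, -0.06 without WT NKT1 replicate 2 and -0.56 without SKG NKT1 replicate 1, within -0.56 to 2.15 over the libraries left out. That of Il22 between SKG and WT NKT17, 0.19, was -0.01 without WT NKT17 replicate 1 and -0.33 without WT NKT17 replicate 2, with 1.42 as the highest. Without WT NKT1 replicate 3, the difference of the SKG effect on Il17rb was -1.34 for NKT2 against NKT1 and -0.92 for NKT17 against NKT1, in place of 0.54 and 0.99; the highest values were 1.37 and 1.79.

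The replicate block by title token left the called genes of the other 11 comparisons at the same counts. Between the genotypes same-token libraries of a subset correlated at -0.15 to 0.09, so they share only a token. With the block, the SKG to WT difference in NKT17 was -0.87 for Il23r (adjusted p 0.00227), 0.72 for Il17ra (0.00191), -0.96 for Il1r1 (0.141), 1.08 for Il17rb (0.127) and -1.41 for Il17a (0.511). In SKG, all 6 libraries of each subset pair correlated best with their own token, a hint from the data and not the design.

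Over all genes, the calls between SKG and WT NKT17 went from 931 to 1398 with no fold minimum, and those between SKG and WT NKT1 from 364 to 205 with only the libraries compared. The SKG effect of NKT17 against NKT1 gave 464 calls, 278 at an adjusted p under 0.05 and 296 without SKG NKT17 replicate 3. That of NKT17 against NKT2 gave 244, 155 at an adjusted p under 0.05 and 157 without SKG NKT17 replicate 1. With a prior count of 2, 20 of 24 genes named as most like a member were the same. With the longest transcript as length, Il17rb in SKG NKT17 was at 154 RPKM and Il17rc in SKG NKT2 at 0.603 RPKM, and 52 of 54 levels moved by less than 1 SD. Few counts lay behind Il17f and Il17rc in all groups, and behind Il23r, Il1r1 and Il17re outside NKT17.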
